A study of Mus musculus with 10 samples.

Results

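The small nuclear RNA (snRNA), small nucleolar RNA (snoRNA) and small Cajal body RNA (scaRNA) genes of mouse round spermatids were followed in testes held at 33 °C or warmed to 42 °C. The 762 genes described here were chosen by their class in the deposited table and selected on their counts, a sum of 10 or more over all 10 libraries, out of 55401 gene rows. They comprised 377 of 1383 snRNA rows, 357 of 1507 snoRNA rows and 28 of 51 scaRNA rows. Of the other rows, 625 snRNA, 772 snoRNA and 13 scaRNA rows had no count in any library. Because the sum chose the members, their presence among counted genes is a description and not a finding. At the edge of the rule, 20 members had a sum of 10, such as Gm22451, Gm23118 and Gm23468, and 34 rows just outside had a sum of 9, such as Gm23370, Gm22220 and Gm22352.

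All 10 animals were adult male CD1 mice, an outbred stock with no engineered allele in the labels. Under isoflurane the testes touched water kept at 33 °C (the control group, written 33C below) or at 42 °C (42C) for 30 min. The mice woke, were killed at once, and round spermatids, the haploid cells that follow meiosis, were isolated. Each group had 5 libraries of total RNA, numbered 1 to 5, made with a stranded protocol that depletes ribosomal RNA after extraction on RNeasy Mini plus columns. Such columns retain short RNA poorly, and 737 of the 762 members (96.7%) are shorter than 200 bases. How far recovery on the column set the levels below was not tested. The design gives 5 mice per group, but nothing in the labels ties a library to a single animal, so the spread between libraries may include technical spread.

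Spliceosomal snRNAs assemble with proteins into particles that recognise and excise introns: U1 pairs with the 5′ splice site, U2 with the branch point, and U4, U5 and U6 join as a preassembled unit. U11 and U12 do the work of U1 and U2 for a minor class of introns, and U7 directs 3′ end cleavage of replication-dependent histone mRNA. Box C/D snoRNAs guide 2′-O-methylation and box H/ACA snoRNAs guide pseudouridylation, mainly of ribosomal RNA, while scaRNAs do both on snRNAs in Cajal bodies. Most mammalian snoRNAs are cut from introns of a host gene, whereas snRNAs and a few snoRNAs have promoters of their own. The genome also carries many copies and decayed copies of snRNA genes, U6 and U1 above all.

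The sequences that follow belong to the members on which the results turn, and are those of GENCODE M21 transcripts on GRCm38, printed 5′ to 3′ as DNA. In the U1 family, capitals mark ACTTACCTG, the letters that pair with the 5′ splice site, and AATTTGTG, which holds the Sm protein site. Gm22513 (chr12:54696782-54696945, plus strand) and Gm23238 (chr19:18732741-18732904, plus strand) lie outside any host gene. Rnu1b1 (chr3:96359953-96360117, minus strand) has the same sequence as Rnu1b2 (chr3:96374021-96374185, plus strand). Gm22513 differs from the named gene Rnu1a1 at 1 of 164 bases and Gm23238 at 4.
Gm22513: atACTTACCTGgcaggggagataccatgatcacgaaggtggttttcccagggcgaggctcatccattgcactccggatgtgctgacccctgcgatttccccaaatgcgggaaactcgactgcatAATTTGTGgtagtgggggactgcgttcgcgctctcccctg
Gm23238: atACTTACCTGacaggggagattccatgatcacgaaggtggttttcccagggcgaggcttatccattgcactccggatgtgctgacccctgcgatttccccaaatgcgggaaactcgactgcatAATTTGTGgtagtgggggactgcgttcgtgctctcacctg
Rnu1b1: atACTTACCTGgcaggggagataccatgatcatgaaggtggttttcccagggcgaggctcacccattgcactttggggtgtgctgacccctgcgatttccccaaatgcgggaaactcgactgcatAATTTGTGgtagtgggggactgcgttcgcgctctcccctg
ACTTACCTG stood within the first 15 bases of all 21 members at least 90% identical to a named U1 gene, of 5 of 27 diverged U1 copies (70 to 90% identical), and of 55 of all 1383 snRNA rows (4.0%). AATTTGTG was present in 19 of the 21, in 7 of the 27 and in 11.3% of all snRNA rows. Searches were made on the RNA's own strand, and a match is a description only.

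U4 is shown because it varied between libraries as U1 did. Gm24265 (chr5:115489459-115489599, plus strand), which the table leaves unnamed and whose sequence is that of U4, has the Sm site letters AATTTTTG in capitals.
Gm24265: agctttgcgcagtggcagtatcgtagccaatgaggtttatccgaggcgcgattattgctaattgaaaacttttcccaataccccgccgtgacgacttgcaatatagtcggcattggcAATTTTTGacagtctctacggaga
ACAGAGA, the box of U6 that pairs with the 5′ splice site, occurred in 107 of 119 members of the U6 family, in 53 of 95 diverged U6 copies and in 42.2% of all snRNA rows. The sequence of Rnu6 is shared, base for base, by 43 members.

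Box C/D genes are shown with the C box letters TGATGA and the last CTGA, the D box, in capitals. Gm24339 (chr9:15326464-15326539, minus strand) and Scarna9 (chr9:15326264-15326333, minus strand), which the table classes as snoRNA, lie in introns of Cep295. Snord118 (chr11:69073427-69073561, plus strand) lies in no host gene, and Snord66 (chr16:20684239-20684313, plus strand) is partly in an exon of Eif4g1.
Gm24339: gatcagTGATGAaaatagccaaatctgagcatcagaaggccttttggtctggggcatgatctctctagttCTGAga
Scarna9: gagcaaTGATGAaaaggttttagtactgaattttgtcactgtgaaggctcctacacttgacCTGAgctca
Snord118: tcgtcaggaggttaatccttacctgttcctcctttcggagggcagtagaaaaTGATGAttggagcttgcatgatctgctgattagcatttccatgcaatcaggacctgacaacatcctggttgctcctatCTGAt
Snord66: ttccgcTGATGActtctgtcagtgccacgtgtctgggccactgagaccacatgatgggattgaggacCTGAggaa
By a rule asking for TGATGA in the first 15 and CTGA in the last 15 bases, 70 of the 357 snoRNA members (19.6%) had both boxes, beside 19.5% of all snoRNA rows. By a rule asking for ACA ending 3 bases from the 3′ end, 103 members (28.9%) were of the H/ACA form, beside 18.0% of all snoRNA rows. Snord118 met neither rule: its first TGATGA starts at base 53, and no ACA ends 3 bases from its 3′ end.

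The cell type in the labels was checked against marker genes. All 10 round spermatid markers were tested, with summed levels of 762 to 1608 CPM (counts per 1000000 counts, scaled by edgeR's TMM factors) at 33C and 1211 to 1858 at 42C. Elongating spermatid markers summed to 2474 to 5312 and 3100 to 7675, and spermatocyte markers to 685 to 1012 and 530 to 793. Sertoli markers summed to 2.14 to 9.24 CPM at 33C and 4.09 to 12.9 at 42C, Leydig markers to 2.93 to 18.3 and 2.71 to 7.22, macrophage markers to 6.93 to 10.7 and 6.32 to 8.88, and erythroid markers to 0.0534 to 0.375 and 0.110 to 0.291. Spermatogonial, peritubular and endothelial markers summed to at most 13.7, 6.62 and 19.0 CPM, and no marker of any list was at 0 in all libraries. Over all tested features the log2 fold change was positive for 48.9%. Among markers it was positive for 10 of 10 round spermatid, 9 of 9 elongating spermatid and 1 of 9 spermatocyte genes. By edgeR 0 of these were called, and 2, 1 and 0 were higher and 0, 0 and 1 lower at unadjusted p under 0.05. DESeq2 and limma also called 0. The part of cell makeup in the values below was not tested, and in bulk samples fewer cells of a type cannot be told apart from less RNA per cell.

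Libraries held 60623568 to 117723075 counts, of which 50818651 to 112280062 were on genes. Library 42C replicate 2 stood apart: it was the shallowest, and 16.2% of its counts fell on transposable element (TE) subfamilies against 4.62 to 9.07% in the other 9. The members also overlap one another in the table. A total of 11 genes, among them Rnu3a and Rnu3b1, are listed in 2 rows at the same place, which leaves 751 distinct places. Another 85 members fall into 17 groups of identical sequence at different places, for which reads cannot be assigned to a copy, and the handling of such reads is not given in the sources used here. The strand setting of the counting is not given in the sources used here either, and 65 snRNA, 32 snoRNA and 2 scaRNA members lie within a gene on the other strand.

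Together the members took a very small share of all gene counts. Shares are given in ppm, the counts on a class per 1000000 counts on genes, and have no TMM scaling. At 33C the snRNA share was 48.8, 66.4, 47.8, 45.1 and 51.6 in replicates 1 to 5, and at 42C it was 66.6, 82.9, 63.1, 65.2 and 53.4. The means were 51.9 ± 8.41 and 66.2 ± 10.6 (SD, n = 5 each), a difference of 14.3. The lowest 42C library stood above 4 of the 5 controls, but the groups overlapped through control replicate 2. The snoRNA share was 55.5, 62.4, 62.3, 59.4 and 51.2 at 33C and 66.9, 87.9, 56.5, 60.6 and 49.0 at 42C, with means of 58.2 ± 4.78 and 64.2 ± 14.8. The scaRNA share was 30.0, 33.1, 40.4, 32.6 and 25.0 at 33C and 32.0, 41.4, 34.1, 45.4 and 29.0 at 42C, with means of 32.2 ± 5.59 and 36.4 ± 6.78. For both, the lowest of the 10 values or the one next to it was a 42C library, and the groups overlapped widely.

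Over all members the share was 142 ± 13.7 at 33C and 167 ± 29.6 at 42C. Library 42C replicate 2 had the highest snRNA, snoRNA and total shares. Without it the 42C means were 62.1 ± 5.93 for snRNA, 58.2 ± 7.52 for snoRNA, 35.1 ± 7.13 for scaRNA and 155 ± 17.6 for all (n = 4), so that the snoRNA difference went from 6.02 to 0.0907. These sums received no test, because the members were chosen with results of these data known. Counting error was small beside the spread between libraries: the Wilson 95% half-width of a class share in a library was at most 4.27% of its value, and covers counting error only. The plot of shares by class shows each library.

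**Figure D1:**
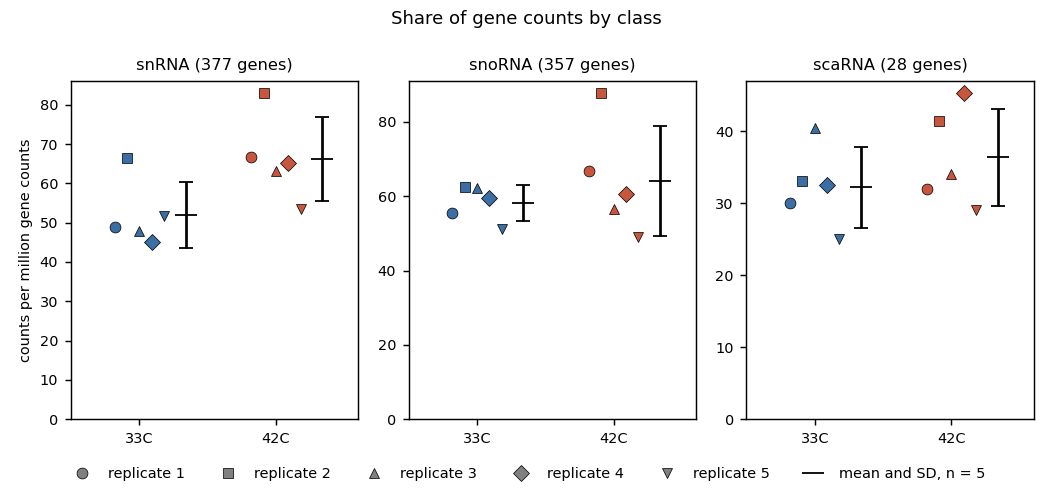
Share of gene counts on snRNA, snoRNA and scaRNA genes, in ppm of gene counts, for the 5 libraries at 33C (blue) and the 5 at 42C (red); marker shape gives the replicate and the bar the mean and SD. The groups overlap in each class, and 42C replicate 2 (square) is the highest library for snRNA (82.9) and snoRNA (87.9).

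A few members carried much of each class. Scarna2, a scaRNA that guides methylation of U2, took 40.9% of all scaRNA member counts, and 3 genes (with Gm22009 and Gm22442) took 78.9%. In the snoRNA class Scarna10, a guide for U5 that the table lists as a snoRNA, took 16.0%, and the first 10 members 54.8%. The snRNA class was the most spread out: Gm22513 took 8.21% and the first 10 members 36.9%. The median member had a sum of 48 counts for snRNA, 38 for snoRNA and 114 for scaRNA, and 403 of the 762 had a count in every library.

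By position, 309 members lay in no host gene, 344 in an intron of a host on the same strand and 109 in or across a host exon. The classes differed: 57.8% of snRNA counts came from members with no host, against 7.7% of snoRNA counts, of which 52.8% came from introns and 39.5% from members overlapping exons. Reads from the host's own transcript can fall on a member inside an exon. Intronic members took 67.1, 57.0, 79.0, 73.8 and 47.4 ppm at 33C and 64.9, 130, 60.1, 77.8 and 60.7 at 42C. Library 42C replicate 2 was far above the rest, and its share of TE counts was also the highest. The intronic mean was 64.9 ± 12.8 at 33C and 78.7 ± 29.6 at 42C, or 65.9 ± 8.26 without that library (n = 4). Members in no host gene averaged 49.9 ± 9.80 and 60.2 ± 6.83, or 60.5 ± 7.84 without it. Members overlapping a host exon averaged 27.6 ± 7.47 and 27.9 ± 5.87. Groups overlapped for all 3 positions, and the part of TE-rich RNA in these shares was not tested.

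The U1 family, with 21 members and 29.1% of snRNA counts, varied widely from library to library. Its share was 8.66, 29.7, 4.64, 3.49 and 18.5 ppm at 33C and 28.6, 7.01, 24.7, 19.7 and 14.6 at 42C. Replicates 2 and 5 at 33C and replicates 1, 3 and 4 at 42C were high, and replicates 3 and 4 at 33C and 2 at 42C were low, so both groups spanned most of the range. The mean was 13.0 ± 11 at 33C and 18.9 ± 8.51 at 42C, or 21.9 ± 6.10 at 42C without replicate 2 (n = 4). The U2 family (11 members) averaged 4.67 ± 3.12 and 5.35 ± 1.89, and the U4 family (2 members) 2.25 ± 1.64 and 2.68 ± 1.31. Without 42C replicate 2 the 42C means were 5.91 ± 1.62 for U2 and 3.12 ± 0.999 for U4 (n = 4). The 5 libraries highest for U1 were also the 5 highest for Rn7sk, an abundant nuclear RNA that restrains transcription elongation and is not a member. Rn7sk ran at 2222, 5278, 1885, 2439 and 3707 ppm at 33C and 3514, 896, 4019, 3064 and 2377 at 42C. It was lowest in 42C replicate 2. Rn7sk itself did not pass the edgeR test (log2 fold change -0.22, SE 0.42, adjusted p = 0.812). What sets this shared order of libraries was not tested.

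U6 and the decayed copies followed another order. The U6 family, with 119 members and 17.4% of snRNA counts, took 11.1, 8.19, 11.7, 11.5 and 7.41 ppm at 33C and 8.94, 18, 8.96, 9.64 and 10.4 at 42C. Here 42C replicate 2 was the highest and 33C replicates 2 and 5 the lowest, although both of those were high for U1. The means were 9.98 ± 2.02 and 11.2 ± 3.86, or 9.49 ± 0.700 at 42C without replicate 2 (n = 4). Diverged U6 copies (95 members) averaged 7.93 ± 3.64 and 10.0 ± 7.19, with 22.7 in 42C replicate 2 and 6.82 ± 1.14 at 42C without it. Another 83 snRNA members were under 70% identical to each reference gene of U1, U2, U4, U5, U6, U7, U11 and U12. Other named genes were not compared. These 83 averaged 6.12 ± 2.42 and 8.20 ± 4.90, or 6.04 ± 1.08 at 42C without replicate 2. The 43 identical copies of Rnu6 had sums of 28 to 230 counts with a median of 80. Their summed share was 4.19 ± 0.312 and 4.66 ± 0.541, and their summed counts had a log2 fold change of 0.07 (SE 0.13, 95% interval -0.20 to 0.35, adjusted p = 0.795 by edgeR).

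**Figure D2:**
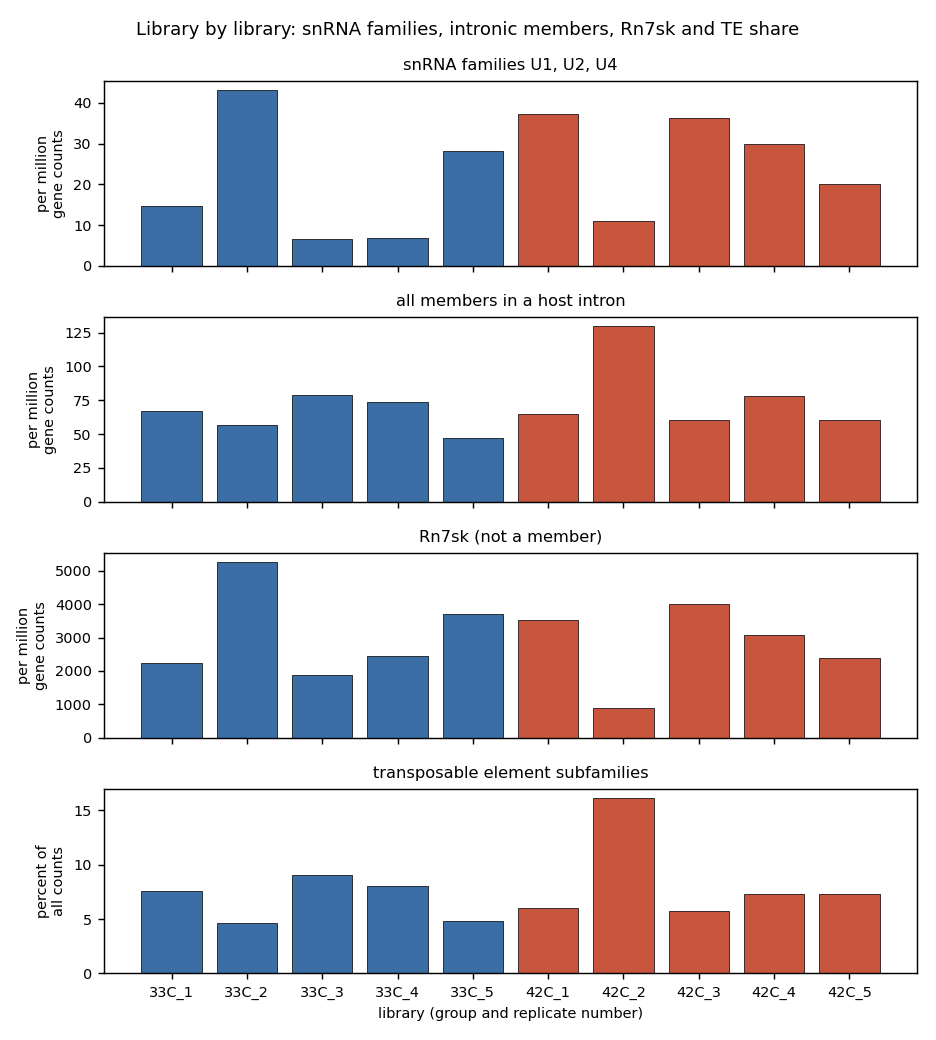
Measures in each of the 10 libraries (blue 33C, red 42C): the summed U1, U2 and U4 families, all intronic members and Rn7sk in ppm of gene counts, and TE subfamilies in percent of all counts. Library 42C_2 is low in the first and lowest for Rn7sk (896) and highest for intronic members (130) and TE counts (16.2%).

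Across all 26025 features that passed edgeR's filter on low counts, 23 (0.0884%) were called higher and 1 (0.00384%) lower at 42C at adjusted p under 0.05 by the quasi-likelihood test. Of the members, 179 passed the filter (92 snRNA, 73 snoRNA and 14 scaRNA) and 583 did not. The test called 0 members in either direction, and the smallest adjusted p of a member was 0.220. Limma with voom weights also called 0, with a smallest adjusted p of 0.0502. At unadjusted p under 0.05 by edgeR, 13 members (7.26%) were higher and 3 (1.68%) lower, beside 8.56% and 2.94% of all features. Over the 3 classes together the members' shares were thus near or below the background. By class, 10 of 92 snRNA members were higher and 0 lower, a share above the background for higher. For snoRNA 2 of 73 were higher and 3 lower, and for scaRNA 1 of 14 was higher and 0 lower. The snRNA rows include copies of identical sequence. The median log2 fold change of the tested members was 0.12 and that of all features -0.01. By class it was 0.17 for snRNA (60 of 92 positive), 0.02 for snoRNA (38 of 73) and 0.03 for scaRNA (7 of 14). Of the tested members 58.7% were positive, beside 48.9% of all features. Without 42C replicate 2, 103 of 189 tested members were positive, and with voom weights 95 of 179. The members' medians were then 0.07 and 0.05, beside -0.005 and -0.03 over all features. All 5 libraries at 42C were above all 5 at 33C for 3 tested members and below for 2 (1.12%), beside 1.32% and 0.68% of all features. DESeq2, which filters less, called 2 members higher and 2 lower of the 630 to which it gave an adjusted p. Over all 33968 features with an adjusted p it called 307 (0.904%) higher and 41 (0.121%) lower.

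Of the abundant snRNAs none passed the test. Gm22513, the U1 gene shown first above and the member of highest mean in its class, had 1, 1700, 65, 60 and 12 counts at 33C and 767, 80, 704, 442 and 352 at 42C. A single control library, 33C replicate 2, was above all others, and the remaining 4 were below every 42C library. Its log2 fold change was 0.54 (SE 1.15, 95% interval -1.95 to 3.03, adjusted p = 0.837 by edgeR), and 3.78 without 33C replicate 2, still not called (adjusted p = 0.257). Leaving out another single library gave 0.22 to 0.82, and limma with voom weights gave 4.92 (adjusted p = 0.0638). Gm23238, the second U1 gene shown, had 142, 201, 32, 38 and 475 counts at 33C and 598, 46, 290, 239 and 171 at 42C. Over all libraries the fitted log2 fold change was 0.57 (SE 0.70). It ranged from 0.087 without 42C replicate 1 to 1.48 without 33C replicate 5. Gm22513 differs from Rnu1a1 at 1 of 164 bases and Gm23238 at 4. Reads of such near copies can come from other U1 genes, so both rows are uncertain.

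Rnu1b1 and Rnu1b2 show what identical copies do to single rows. Rnu1b2 had 219, 0, 0, 31 and 425 counts at 33C and 394, 28, 530, 231 and 132 at 42C. Rnu1b1 had 0, 506, 106, 31 and 0 at 33C and 157, 28, 0, 184 and 198 at 42C. Where one was at 0 the other was not, and in 33C replicate 4 and 42C replicate 2 the counts of both were equal. Their sum was 2.57, 4.51, 1.25, 0.729 and 4.69 ppm at 33C and 5.82, 1.10, 5.51, 4.94 and 3.77 at 42C (log2 fold change 0.55, SE 0.56, adjusted p = 0.660). Gm22068, identical to Rnu1a1 and inside an intron of Tex14, had 96, 291, 17, 27 and 331 counts against 81, 18, 70, 51 and 96, a log2 fold change of -1.22 (SE 0.69), or -0.60 without 33C replicate 5. The 6 copies of that sequence summed to a log2 fold change of -0.17 (SE 0.53).

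**Figure D3:**
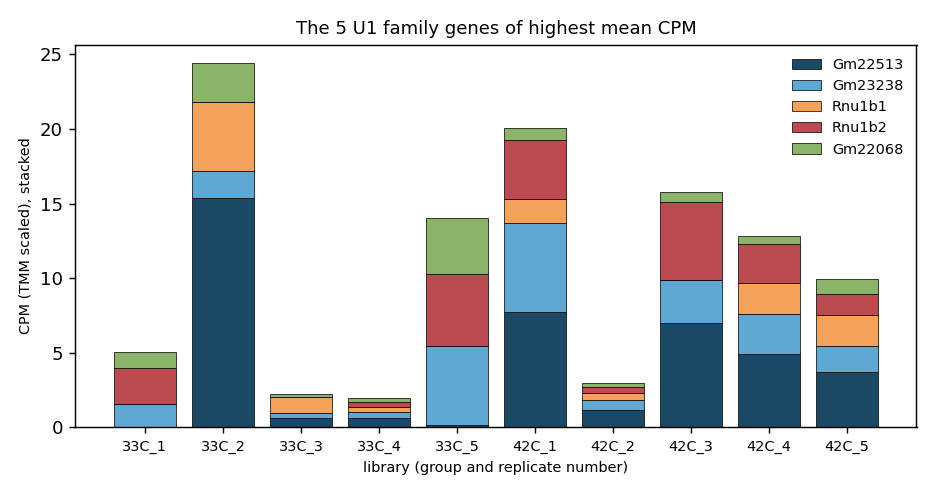
CPM of the 5 U1 family genes of highest mean, stacked for each library of 33C and 42C. The Gm22513 row holds 15.4 CPM in 33C_2 and 0.0110 in 33C_1, and reads of such a near copy can come from other U1 genes. Rnu1b1 and Rnu1b2, which are identical in sequence, divide their counts unevenly: either is at 0 in some libraries, and both are counted in others.

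For U2, U4 and U7 the groups overlapped. Gm25360 (chr1:72226240-72226430), the U2 family member of highest level, had 143, 501, 56, 99 and 243 counts at 33C and 140, 54, 170, 295 and 184 at 42C. Its mean was 2.10 ± 1.58 CPM at 33C and 1.82 ± 0.928 at 42C. Gm24265, the U4 gene shown above, had 107, 356, 36, 56 and 148 counts against 151, 25, 244, 207 and 127, or 1.41 ± 1.14 and 1.59 ± 0.833 CPM. Neither direction was stable. The log2 fold change of Gm25360, -0.20 over all libraries, was -0.52 without 42C replicate 4 and 0.34 without 33C replicate 2. That of Gm24265, 0.18 over all libraries, was -0.067 without 33C replicate 3 and 0.78 without 33C replicate 2. Both ranged widely within a group, with 33C replicate 2 the highest of all. Rnu7 (chr6:124741225-124741286), which lies inside an exon of Grcc10, had 219, 368, 182, 197 and 391 counts at 33C and 348, 207, 337, 400 and 258 at 42C. Its mean was 2.82 ± 1.05 and 3.42 ± 0.667 CPM, and the log2 fold change of 0.28 (SE 0.24, 95% interval -0.25 to 0.81) did not pass the test. It ranged from 0.16 without 33C replicate 3 to 0.53 without 33C replicate 5. Grcc10 had a log2 fold change of 0.25 (SE 0.21), close to that of the member within it. Per kilobase of RNA, over all 10 libraries, the Rnu7 row averaged 50.3 CPM, against 25.2 for Gm22513 and 10.6 for Gm24265. These are single rows and do not rank the families, and reads of Grcc10 can fall on Rnu7. The U1 family with its 21 members averaged 13.0 ppm at 33C and 18.9 at 42C. Rnu7, the only member of its family, averaged 2.92 and 3.79 ppm.

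U11 and U12 of the minor spliceosome were at low level. The U12 family (3 members) took 0.629 ± 0.247 ppm at 33C and 0.793 ± 0.463 at 42C. Rnu12 had 56, 64, 9, 12 and 44 counts at 33C and 18, 30, 27, 59 and 24 at 42C, a log2 fold change of -0.09 (SE 0.53), which ran from -0.43 without 42C replicate 4 to 0.17 without 33C replicate 2. Rnu11 had 9, 8, 7, 5 and 6 counts at 33C and 8, 0, 6, 10 and 8 at 42C and did not pass the filter. The 0 in 42C replicate 2 allows up to 3 counts, 0.0495 per 1000000 counts, against a mean of 0.0727 ± 0.0167 CPM at 33C. The 4 members of the U5 family, whose RNA contacts exons during splicing, took only 0.137 ± 0.0797 and 0.157 ± 0.0917 ppm, and 0 of them passed the filter.

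Among scaRNAs, Scarna2 (chr3:108554338-108554751, minus strand), with no host gene, was the most abundant member of all. It had 997, 1430, 1594, 1162 and 908 counts at 33C and 1176, 776, 1377, 1516 and 1124 at 42C, or 12.6 ± 2.30 and 13.1 ± 2.31 CPM. The groups overlapped almost wholly, with a log2 fold change of 0.07 (SE 0.16, 95% interval -0.28 to 0.42, adjusted p = 0.860 by edgeR). Leaving out 1 library moved it between -0.043 (42C replicate 4) and 0.17 (33C replicate 3). Gm22009, in an intron of the importin gene Kpna4, averaged 5.91 ± 1.87 and 7.57 ± 3.95 CPM. Gm22442, in an intron of the chromatin remodeller gene Chd3, had 4.07, 7.96, 3.85, 4.56 and 6.11 CPM at 33C and 7.16, 1.54, 7.29, 5.84 and 4.65 at 42C. It was lowest in 42C replicate 2, and its log2 fold change was 0.00 with SE 0.35, and ran from -0.15 without 42C replicate 3 to 0.26 without 42C replicate 2. Gm23119 averaged 2.19 ± 0.380 and 1.89 ± 0.118 CPM, Scarna13, in an intron of Snhg10, 1.32 ± 0.287 and 1.40 ± 0.466, and Scarna17, a guide for U12 and U4, 0.633 ± 0.232 and 0.534 ± 0.117.

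Gm26347, a scaRNA in an intron of Rnf41, was among the 5 tested members of smallest p with a higher mean at 42C. It had 24, 9, 15, 20 and 16 counts at 33C and 27, 43, 23, 62 and 38 at 42C, or 0.178 ± 0.0685 and 0.446 ± 0.212 CPM. Replicate 3 at 42C lay within the control range. Its log2 fold change was 1.31 (SE 0.39, adjusted p = 0.348 by edgeR), and that of Rnf41 was 0.50 (SE 0.18, adjusted p = 0.386).

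Of the abundant members of the snoRNA class, Scarna10, partly in an exon of the condensin gene Ncapd2 (chr6:125186359-125186683, minus strand), had 399, 2239, 183, 545 and 1334 counts at 33C and 1636, 131, 1123, 447 and 326 at 42C. Its 4 highest libraries, 33C replicates 2 and 5 and 42C replicates 1 and 3, were also high for U1, with 9.48 ± 7.82 and 7.58 ± 6.05 CPM and a log2 fold change of -0.32 (SE 0.65). That value ran from -0.82 without 42C replicate 1 to 0.20 without 33C replicate 2. Gm24339, in the Cep295 intron, had 679, 641, 815, 1094 and 503 counts at 33C and 1127, 746, 610, 883 and 691 at 42C, or 7.78 ± 2.44 and 9.11 ± 2.36 CPM. Scarna9, a guide for U2 in the same host, averaged 2.86 ± 1.15 and 3.82 ± 1.50 CPM. Neither differed beyond the spread between libraries (log2 fold changes 0.23, SE 0.24, and 0.41, SE 0.31), and Cep295 had -0.04 (SE 0.11). Scarna9 was at 0.19 without 42C replicate 4 and 0.64 without 33C replicate 3. Per kilobase Gm24339 was the higher of the pair, at 111 CPM against 47.7.

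Gm23547, partly in an exon of the prohibitin gene Phb2, averaged 3.26 ± 0.700 CPM at 33C and 3.23 ± 1.10 at 42C. Snora15, an H/ACA snoRNA partly in an exon of the chaperonin gene Cct6a, averaged 1.61 ± 0.302 and 1.48 ± 0.457 CPM. Gm24336, in an intron of Cwf19l1, averaged 1.43 ± 0.615 and 1.41 ± 0.788 CPM. All 3 overlapped between groups. Their log2 fold changes were -0.01, -0.12 and -0.02, and leaving out single libraries gave both signs for each, with 0.18, 0.044 and 0.24 without 42C replicate 2. U3, the snoRNA that directs early cleavage of the ribosomal RNA precursor, was at low level. Rnu3b1 had 16, 21, 13, 11 and 13 counts at 33C and 6, 10, 8, 12 and 10 at 42C in its first row, a log2 fold change of -0.55 (SE 0.32, adjusted p = 0.486). Summed with its identical copy Rnu3b3 the log2 fold change was -0.44 (SE 0.30). Rnu3a, with 34 counts, did not pass the filter, and neither did the box C/D gene Rnu73b, in an intron of Rps3a1, with 18 counts and 0 in 3 of the 42C libraries.

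**Figure D4:**
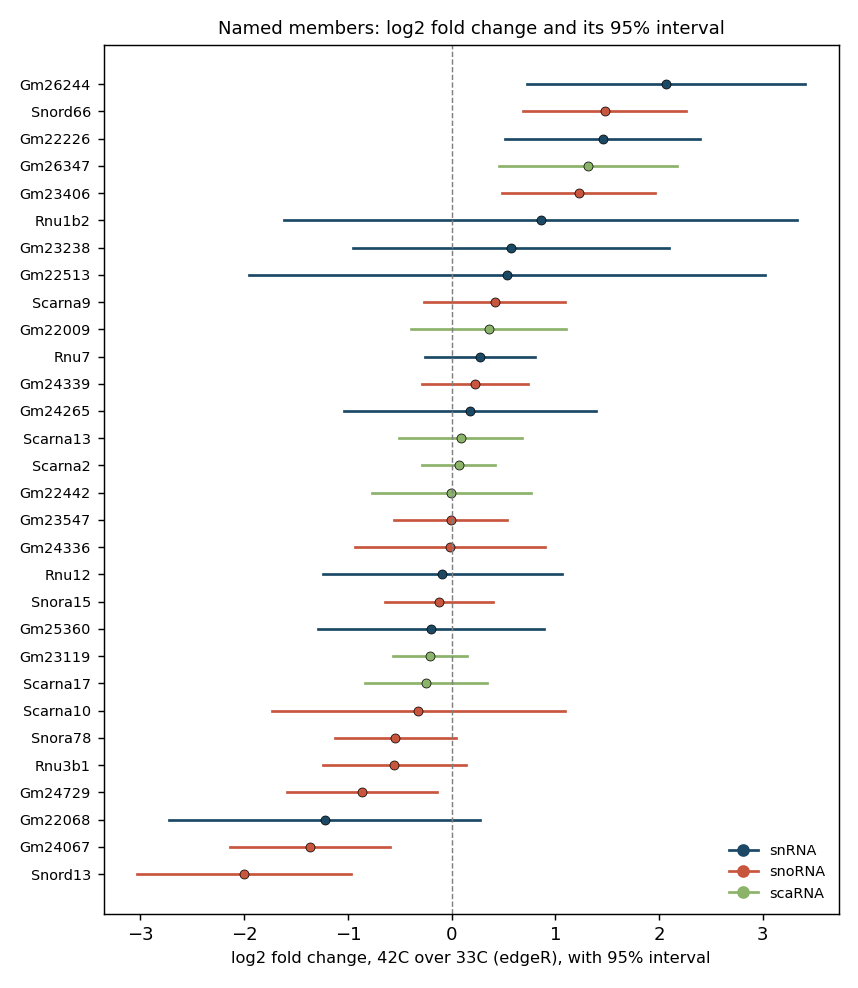
Log2 fold change of 42C over 33C with its 95% interval from edgeR, for the 30 named members that passed the filter, coloured by class and ordered by value. The interval holds 0 for 22 of the 30, and 0 members had an adjusted p under 0.05. The 30 include members named because their p was among the smallest in each direction, so this tally does not describe all tested members. Of all 179 tested members, 13 were higher and 3 lower at unadjusted p under 0.05 by edgeR. Intervals run from narrow, as for Scarna2 (-0.28 to 0.42), to wide, as for Gm22513 (-1.95 to 3.03).

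Snord13, the box C/D RNA known as U13 that guides acetylation of 18S ribosomal RNA, had the smallest p of the members. It had 23, 45, 111, 78 and 21 counts at 33C and 9, 7, 23, 13 and 13 at 42C, or 0.571 ± 0.392 and 0.141 ± 0.0537 CPM. All 42C values in CPM were below all 33C values, although the highest, 0.228 in replicate 3, was close to the lowest control, 0.237 in replicate 5. Its log2 fold change was -2.00 (SE 0.47, 95% interval -3.03 to -0.97, adjusted p = 0.220 by edgeR). DESeq2 called it lower, at -1.99 (adjusted p = 0.00638).

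Snord118, or U8, needed for maturation of 28S and 5.8S ribosomal RNA, was too low for the edgeR filter. It had 8, 13, 9, 21 and 7 counts at 33C and 2, 2, 3, 0 and 1 at 42C, sums of 58 and 8. Every 42C library was below every control library. DESeq2 called it lower (log2 fold change -2.76, SE 0.72, adjusted p = 0.0197), while edgeR with no filter gave -2.62 (SE 0.59, adjusted p = 0.0988), which does not pass. The 0 in replicate 4 allows up to 3 counts, or 0.0331 per 1000000 counts. Snord118 was singled out after its values were seen, as was Gm25889 below. Both Snord13 and Snord118 lie in no host gene.

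Gm24067, inside an exon of Ppan, a ribosome biogenesis gene, had 22, 26, 14, 17 and 11 counts at 33C and 7, 7, 10, 4 and 4 at 42C, or 0.185 ± 0.0535 and 0.0720 ± 0.0291 CPM. The groups did not overlap, and the log2 fold change was -1.36 (SE 0.35, adjusted p = 0.284 by edgeR). Ppan had -0.43 (SE 0.12, adjusted p = 0.308), in the same direction and smaller. Gm24729, of H/ACA form in an intron of Map2, had 43, 23, 47, 46 and 23 counts against 21, 23, 16, 16 and 16, and a log2 fold change of -0.86 (SE 0.33, adjusted p = 0.394), with Map2 at 0.30 (SE 0.21). Snora78, of H/ACA form in an intron of Snhg9, averaged 0.311 ± 0.0681 and 0.213 ± 0.0526 CPM with a log2 fold change of -0.54 (SE 0.27, adjusted p = 0.456). Its host Snhg9 had 0.16 (SE 0.25), in the other direction, and Rps2 lies on the other strand of Snora78.

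On the higher side, Snord66, a methylation guide for 18S ribosomal RNA, had 8, 8, 4, 7 and 5 counts at 33C and 14, 15, 11, 27 and 16 at 42C, or 0.0665 ± 0.0184 and 0.188 ± 0.0762 CPM. All 42C libraries were above all controls, with a log2 fold change of 1.48 (SE 0.36, 95% interval 0.69 to 2.26, adjusted p = 0.243 by edgeR). Its host Eif4g1, a translation initiation factor gene whose exon it partly overlaps, had 0.71 (SE 0.26, adjusted p = 0.386). Gm23406, inside an exon of the long noncoding gene Gm49714, had 5, 5, 7, 9 and 3 counts at 33C and 16, 7, 12, 15 and 15 at 42C, and in CPM the groups did not overlap. Its log2 fold change was 1.22 (SE 0.34, adjusted p = 0.314), and that of Gm49714 was 0.66 (SE 0.26). The third tested member higher in every 42C library, Gm22019, had means of 0.105 and 0.146 CPM.

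Gm22226, a diverged U6 copy in an intron of C230038L03Rik, had 9, 6, 18, 9 and 11 counts against 31, 38, 11, 29 and 23, a log2 fold change of 1.45 (SE 0.43, adjusted p = 0.348), and replicate 3 at 42C lay among the controls. C230038L03Rik had 0.31 (SE 0.18), in the same direction. Gm26244, 99.4% identical to a named U1 gene and in an intron of Rock1, had 16, 36, 16, 14 and 0 counts at 33C and 61, 21, 143, 50 and 53 at 42C. Replicate 2 at 42C lay within the control range in CPM, and the log2 fold change was 2.07 (SE 0.62, adjusted p = 0.348 by edgeR). Its host Rock1 had -0.28 (SE 0.13) by edgeR, in the other direction, and DESeq2 called Gm26244 higher (adjusted p = 0.0363). Reads of such a near copy can come from other U1 genes, so its row is uncertain. Gm25889, a diverged U6 copy with no host and with Milr1 on its other strand, had 2, 0, 3, 0 and 0 counts at 33C and 8, 12, 8, 4 and 11 at 42C, sums of 5 and 43. DESeq2 called it higher (adjusted p = 0.0309), and edgeR with no filter did not (adjusted p = 0.115).

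**Figure D5:**
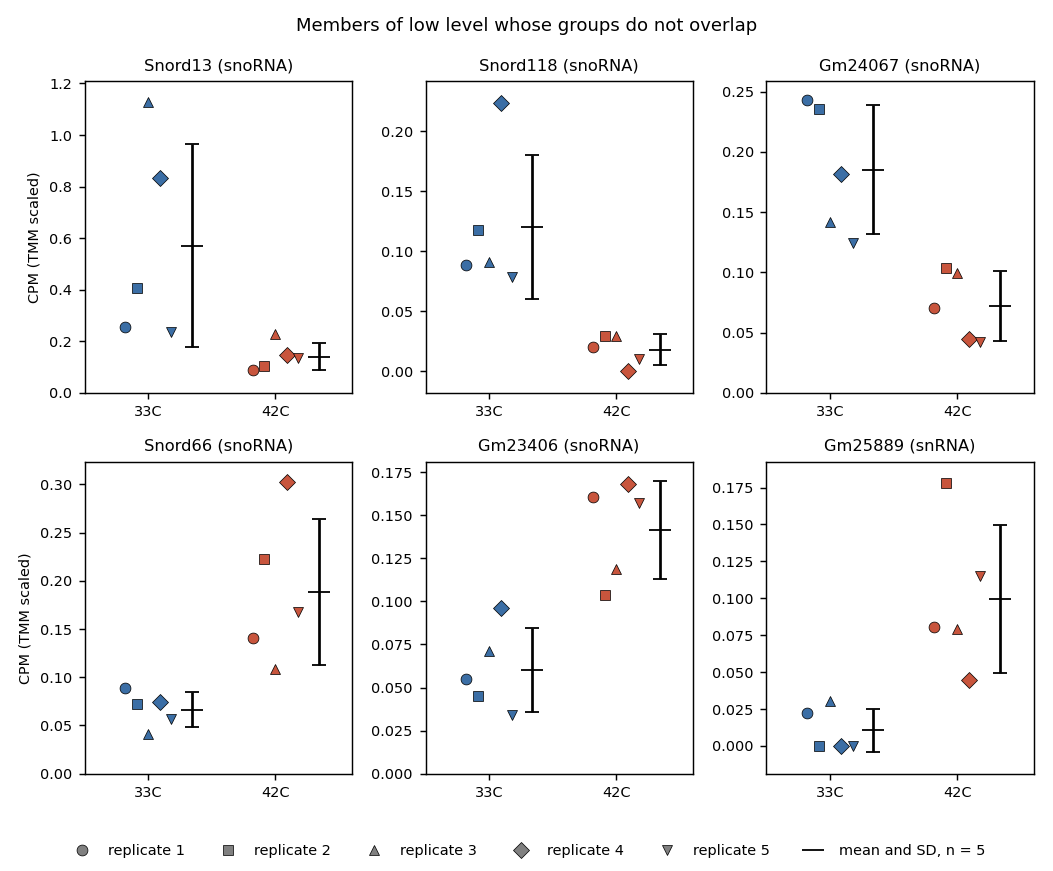
CPM of 6 members whose 33C (blue) and 42C (red) libraries do not overlap, chosen for the plot after their values were seen; marker shape gives the replicate and the bar the mean and SD. Snord13, Snord118 and Gm24067 are lower at 42C and Snord66, Gm23406 and Gm25889 higher, at levels from 0 to 1.13 CPM. Snord118 and Gm25889 did not pass the edgeR filter. Overlap was not tallied over the 583 members that did not pass it, so no share stands beside these 2. The plot is not complete for them: Snord35a, for example, had 2, 5, 1, 1 and 1 counts at 33C and 0 in every 42C library.

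Host genes as a group were flat. Of the tested members, 120 lay in a tested host, 107 hosts in all (94 of them protein coding), of which 0 were called by edgeR, DESeq2 or limma. At unadjusted p under 0.05 edgeR had 8 hosts higher and 5 lower. The median log2 fold change was -0.04 over these hosts and 0.09 over the members within them. Of the 120 members, 75 had the sign of their host. These 120 rows include second rows of the same place and members that share a host, so they are not independent. Members overlapping an exon can also hold reads of the host. Agreement with hosts was not tested.

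The protein genes that make, assemble and remove these RNAs were read from lists whose members were set with earlier results of these data known. Of 52 genes for proteins of U snRNPs, 0 were called and 6 had values above 0, beside 48.9% of all features. The median log2 fold change was -0.15, beside -0.01 over all features. Snrnp27, a component of the U4/U6.U5 tri-snRNP, had the smallest p: 46.8, 71.8, 40.6, 43.7 and 49.8 CPM at 33C and 28.5, 23.7, 33.3, 23.6 and 23.3 at 42C. The groups did not overlap (log2 fold change -0.93, SE 0.17, adjusted p = 0.0893 by edgeR), and the call was missed. Prpf8, the protein at the centre of the spliceosome, had -0.29 (SE 0.13, adjusted p = 0.441). Of 29 genes for snRNA transcription and 3′ end formation 4 were positive (median -0.15), with Zc3h8 of the little elongation complex at 0.54 (SE 0.17, adjusted p = 0.364) and the SNAP complex gene Snapc5 at -0.36 (SE 0.14, adjusted p = 0.398). Of 30 genes for export, capping and assembly 4 were positive (median -0.15), with the U6 trimming enzyme gene Usb1 at -0.36 (SE 0.16) and the Rn7sk capping gene Mepce at -0.26 (SE 0.13).

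Among 19 genes of box C/D particles and their assembly 2 were positive (median -0.17), with Znhit3 at -0.27 (SE 0.14) and Tcof1 at -0.20 (SE 0.11). Among 9 tested genes of box H/ACA particles 1 was positive (median -0.12), with Wrap53, which brings scaRNAs to Cajal bodies, at -0.47 (SE 0.16, adjusted p = 0.383) and the core protein gene Gar1 at 0.55 (SE 0.30). The 20 genes of small RNA decay and the exosome had 11 positive values (median 0.06), with the exosome cofactor gene C1d at 0.65 (SE 0.24) and the deadenylase gene Parn at 0.43 (SE 0.19). Of 36 tested snoRNA host genes on the list 10 were positive (median -0.12), with Snhg17 at 0.84 (SE 0.28, adjusted p = 0.370) and Snhg5 at -0.45 (SE 0.17). Of the other small noncoding RNA genes 7 of 12 were tested and 0 were positive (median -0.20), with Terc, the telomerase RNA, at -0.18 (SE 0.25) and Rmrp, the RNA of RNase MRP, at -0.33 (SE 0.57). The test called 0 genes of these lists in either direction. At unadjusted p under 0.05 edgeR had at most 3 higher and 3 lower in a list. DESeq2 and limma each called 1 of these genes, Snrnp27, lower.

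As a description, the genes outside the 3 classes whose log2 CPM over the 10 libraries was most like the log2 summed share of all members were Srsf2 (Pearson's r = 0.91), Trim43b (0.91), Gm48278 (0.91), Cpne1 (0.90) and Mrap2 (0.89). The 10 points share the libraries and their depths, and the search ran over all other tested genes.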

How the data were processed

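RNA from round spermatids of 10 mice was sequenced as paired-end reads from ribosome-depleted total RNA, 5 libraries at 33C and 5 at 42C. The authors deposited raw counts per gene and per TE subfamily, per the file headers. DRAGEN, cutadapt and Trim Galore are listed in the submitters' processing notes, with mm10 and GRCm38 as builds. The counter, its strand setting and its handling of reads with several places: not given in the sources used here. Groups came from the sample titles. Members, families and lists were chosen with earlier results of these data known. All 762 members matched GENCODE M21 by gene ID, with position and sequence.

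The deposited counts of genes and TE subfamilies were fitted together with edgeR 4.0.16 in R 4.3.3: TMM scaling, filterByExpr (minimum count 10, minimum total 15) and the quasi-likelihood test, with Benjamini-Hochberg adjustment over all features and calls at adjusted p under 0.05. CPM are per 1000000 of all counts after TMM scaling. Shares are per 1000000 counts on genes. Alternatives were DESeq2 1.42.0, limma 3.58.1 (voom with quality weights), other scalings and filters, a replicate block and leaving out each library; summing identical rows and leaving out second rows were chosen after seeing the data. The fit was tested on simulated data. Families were set by identity of at least 90% to a reference gene of U1, U2, U4, U5, U6, U7, U11 or U12. The reference was a named gene except for U4, where it was Gm24265.

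Named members were the 6 snRNA, 6 snoRNA and 6 scaRNA of highest mean CPM, any called member, the 5 of smallest p in each direction, up to 3 on each side of the sum of 10, and a fixed set of named snRNA and U3 genes. Each list gave its 2 genes of smallest p, and hosts were named with their members. A count of 0 allows up to 3 counts. Sequences from mouse chromosome 18 and from UTRs are not printed, and those of some other members are not reported here.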

Additional observations from a re-analysis of the deposited data

Results flagged for a closer look

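In each group of 5 libraries the highest and the lowest value were compared with the rest, for 92 groups of values, and 5 had a value whose gap to its neighbour was over 0.710 of the group's range. Chance flags about 1 in 20 groups. The U6 family in 42C replicate 2 stood at 18 ppm of gene counts. Gm22513, a U1 gene, stood at 15.4 CPM in 33C replicate 2, and Gm26244, another, at 1.42 CPM in 42C replicate 3. The H/ACA gene Gm24729 stood at 0.341 CPM and the U3 gene Rnu3b3 at 0.133 CPM, both in 42C replicate 2, the shallowest library.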

How the results depend on the processing

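Members called at 42C numbered 0 under every setting run but DESeq2, which called 2 higher and 2 lower. All 64 alternatives for the class shares kept their direction. Leaving out a library gave differences of 10.2 to 17.9 ppm for snRNA, 0.0907 to 9.82 for snoRNA, 1.92 to 6.21 for scaRNA and 13.2 to 33.3 for all members. Over all features 23 higher and 1 lower became 307 and 41 with DESeq2, 124 and 29 with voom, 73 and 3 with no filter, 15 and 1 with library totals, 2 and 0 at a mean of at least 1 CPM, and 10 to 21 and 0 to 2 without a library. Same-numbered libraries did not deviate together (correlations -0.192, -0.411, -0.403, -0.557 and -0.104). Libraries of unlike number were not compared, so this cannot exclude that the numbers pair samples. With a replicate block 0 members were called, and 4 features were higher and 0 lower.

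Of 30 named genes, 19 kept 1 sign and 11 changed it, in 54 of 556 fits, and the cause was not tested. With voom the log2 fold change was 0.054 for Gm25360, 0.52 for Scarna10, 0.013 for Gm23547, 0.11 for Snora15, 0.42 for Gm24336, -0.24 for Gm22009 and 0.35 for Gm22442. With a replicate block it was 0.048 for Gm25360 and 0.071 for Rnu12. With DESeq2's size factors Gm23547 was at 0.0078 and Gm22442 at 0.010. Gm23547, Gm24336 and Gm22442 were at 0.027, 0.014 and 0.029 with TMM over genes only, 0.022, 0.026 and 0.037 with library totals, 0.034, 0.017 and 0.032 with no filter, and 0.013, 0.0092 and 0.023 at a mean of at least 1 CPM. Leaving out a library gave -0.15 to 0.26 for Gm22442, -0.15 to 0.18 for Gm23547, -0.067 to 0.78 for Gm24265, -0.24 to 0.27 for Gm24336, -0.52 to 0.34 for Gm25360, -0.43 to 0.17 for Rnu12, -0.82 to 0.20 for Scarna10, -0.041 to 0.29 for Scarna13, -0.043 to 0.17 for Scarna2 and -0.24 to 0.044 for Snora15. For Gm22513 the replicate block gave 3.39. Adjusted p ran from 0.00638 to 0.503 for Snord13. Summing identical rows, an alternative chosen after seeing the data, also called 0 members. Depth limits what can be read: 583 of the 762 members were too low for the filter.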
